A study of Mus musculus with 12 samples.

Results

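The GET pathway posts tail-anchored proteins, which carry a single membrane anchor at their very end, into the membrane of the endoplasmic reticulum (ER). Its mRNAs were followed through 7 genes taken by name: Sgta, Bag6, Get4, Ubl4a, Asna1 (also called Get3), Wrb (Get1) and Caml (Camlg). All 7 were found among the 55416 gene identifiers in the count files, and all 7 were among the 16221 genes tested. The genes were taken by name and not by a threshold on a measured value, with earlier results of these data known. The cells were mouse embryonic stem cells of the established line E14Tg2a.4, in which every group carried Rpl31, a protein of the large ribosomal subunit, fused to FLAG, to a cleavage site for TEV protease and to an AviTag. All cells were transfected with plasmids for the N- and C-terminal fragments of ALIBi, which together biotinylate tagged ribosomes nearby, and all lysates contained cycloheximide. ALIBi was targeted to the cytosol or to the ER, and poly(A) RNA was read from the purified biotinylated ribosomes (ribosome-bound) and from the lysate they came from (whole-cell), with 3 replicates in each of the 4 groups. The labels call the replicates biological and name no separate cultures, so the p-values speak only of the spread among these libraries, and whether the tagged line is a single clone is not given in the sources used here.

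A tail-anchored protein leaves the ribosome before its anchor can be recognised by the signal recognition particle, so it is targeted after translation has ended. Sgta shields the anchor first, a complex of Bag6, Get4 and Ubl4a holds Sgta and the next carrier together, and the ATPase Asna1 takes the client to the ER. There Wrb and Caml, which are themselves membrane proteins of the ER, form the receptor that releases the client from Asna1 and inserts it. The pathway therefore joins soluble proteins of the cytosol with membrane proteins of the ER, and the comparison of ribosomes labelled at both sites asks where each part is translated.

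The members also differ in the hydrophobic stretches that their mRNAs encode. Hydropathy was averaged over windows of 19 residues on the Kyte-Doolittle scale, and a non-overlapping window with a mean of at least 1.6 was called a hydrophobic segment. The codons of 4 windows, the first segment of Wrb and the most hydrophobic window of 3 other members, are given 5′ to 3′, 57 bases each, from GENCODE M21 transcripts (built on GRCm38). Capitals mark codons with T in the second position, which encode phenylalanine, leucine, isoleucine, methionine or valine. They are shown because Wrb and Caml are the receptor, Get4 is a soluble protein that nevertheless passed the threshold, and Asna1 did not pass it.
Wrb, residues 10 to 28: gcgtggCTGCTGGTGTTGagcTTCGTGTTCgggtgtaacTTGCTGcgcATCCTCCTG
Caml, residues 188 to 206: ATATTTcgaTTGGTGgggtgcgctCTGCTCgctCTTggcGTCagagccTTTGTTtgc
Get4, residues 240 to 258: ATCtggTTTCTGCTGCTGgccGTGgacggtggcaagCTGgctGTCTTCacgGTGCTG
Asna1, residues 244 to 262: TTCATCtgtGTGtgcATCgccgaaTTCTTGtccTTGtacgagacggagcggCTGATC

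Of the 19 codons, 12 were in capitals in the Wrb window, 10 in Caml, 11 in Get4 and 9 in Asna1. Wrb, at 174 residues the second shortest member, had 3 segments, and the first began at residue 10. Its segments had means of 2.07, 2.06 and 2.07, and 4 residues followed the last of them. Caml, of 294 residues, had 1 segment by this rule, with a mean of 2.03. That segment began 63.9% of the way along the protein and left 88 residues after it. At a lower threshold of 1.4 Caml had 2 segments. The count of segments thus depends on the threshold and is not a count of membrane spans. Get4 had 1 segment with a mean of 1.87 and Bag6 had 1 with a mean of 1.8, although both are known as soluble proteins. Asna1, Ubl4a and Sgta had none, and their most hydrophobic windows averaged 1.25, 0.77 and 0.81.

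**Figure D1:**
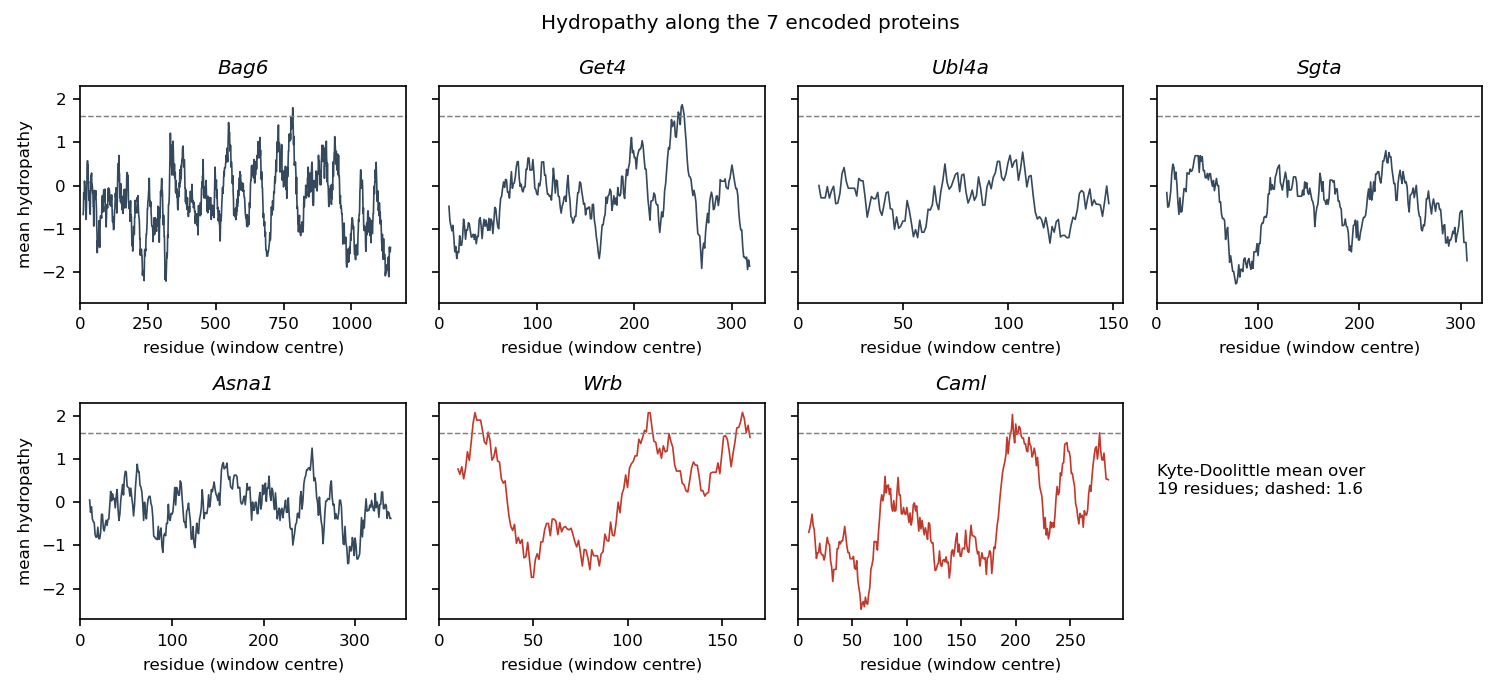
Mean Kyte-Doolittle hydropathy over 19 residues (y axis) against the residue at the window's centre (x axis) for the 7 encoded proteins; red lines are the receptor subunits and the dashed line is the threshold of 1.6. Wrb crosses the line in 3 separate places from its start to its end, while Caml stays below it until late in the protein.

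Each library held 21.1 to 26.9 M reads in genes, and the members' own counts ran from 282 for Caml to 8181 for Bag6. Levels are given in CPM, read counts relative to a library size scaled by trimmed means (TMM). The marker levels in this paragraph are the exception, being relative to library sizes without TMM scaling. Differences in marker sums between groups are therefore not on the scale of the members' levels. All 8 stem cell markers were above 1 CPM in every library, with summed levels of 8050.5 to 8260.8 CPM in the ER whole-cell and 8086.3 to 8222.7 CPM in the cytosol whole-cell libraries. Their sum was 11512 to 11628.6 CPM in cytosol and 12008.6 to 12482.3 CPM in ER ribosome-bound RNA. Of 14 markers of other cells the culture could hold (endoderm, mesoderm, neural cells, fibroblasts), 8 or 9 were above 1 CPM and none was at 0 in every library. Their sum was 72.5 to 81.0 CPM in whole-cell, 90.5 to 91.8 CPM in cytosol ribosome-bound and 124.1 to 126.8 CPM in ER ribosome-bound RNA. The part of these cells in the members' levels was not tested, and in bulk RNA fewer cells of a type and less RNA per cell cannot be told apart.

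Both receptor subunits were higher on ER-labelled than on cytosol-labelled ribosomes, and the difference was largest for Wrb. Wrb, the subunit that docks Asna1 and shapes the insertion channel, was at 85.5, 84.9 and 82.2 CPM in the 3 ER ribosome-bound libraries and at 23.9, 24.2 and 22.4 CPM in the cytosol ribosome-bound ones. In whole-cell RNA it was at 32.0, 33.5 and 34.9 CPM in cytosol-targeted and at 32.5, 31.5 and 33.2 CPM in ER-targeted cells. The ER ribosome-bound libraries were all high, the cytosol ribosome-bound libraries were all low, and the whole-cell libraries lay between them without overlap. ER-labelled over cytosol-labelled ribosomes was 3.58-fold for Wrb (log2 1.84, SE 0.049, adjusted p = 1e-27, by edgeR's quasi-likelihood test, p-values adjusted after Benjamini-Hochberg across every tested gene). Over ER whole-cell RNA it was 2.6-fold (log2 1.38, SE 0.048, adjusted p = 6.1e-24 by edgeR). Against cytosol whole-cell RNA, Wrb fell by 0.51 on the log2 scale on cytosol-labelled ribosomes (SE 0.054, adjusted p = 4.2e-10 by edgeR), to 0.703 of the whole-cell level.

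Caml, the partner that anchors Asna1 through its cytosolic N-terminal part, was at 32.5, 34.1 and 29.7 CPM on ER-labelled ribosomes and at 15.6, 17.0 and 16.3 CPM on cytosol-labelled ones. The whole-cell libraries were at 13.8, 14.9 and 13.6 CPM in cytosol-targeted and 13.6, 13.9 and 14.0 CPM in ER-targeted cells. All ER ribosome-bound libraries were high and did not overlap any other group, and the cytosol ribosome-bound libraries lay just above the whole-cell ones. Caml was 1.97-fold higher on ER-labelled than on cytosol-labelled ribosomes (log2 0.98, SE 0.065, adjusted p = 9.8e-16 by edgeR) and 2.33-fold higher than in ER whole-cell RNA (log2 1.22, SE 0.068, adjusted p = 6.5e-18). Caml also rose on cytosol-labelled ribosomes over cytosol whole-cell RNA, 1.16-fold (log2 0.21, SE 0.072, adjusted p = 0.014 by edgeR), and the log2 ratio was 0.37 with libraries scaled on genes of cytosolic proteins.

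The ratio of Wrb to Caml counts within a library does not depend on scaling between libraries. It was 1.54, 1.42 and 1.38 on cytosol-labelled ribosomes and 2.63, 2.49 and 2.77 on ER-labelled ribosomes. In whole-cell RNA it was 2.32, 2.26 and 2.56 in cytosol-targeted and 2.39, 2.27 and 2.37 in ER-targeted cells. The cytosol-labelled libraries thus had the lowest ratios of Wrb to Caml, and no other group overlapped them. An exact permutation test, 2-sided, gave p = 0.1 for ER-labelled against cytosol-labelled ribosomes and for cytosol-labelled ribosomes against whole-cell RNA, the smallest p that 3 against 3 libraries allow (0.178 adjusted over 16 such tests). The 4 count ratios between members that were compared were chosen after the levels had been seen. Of these, Ubl4a to Bag6 was 0.111 on ER-labelled and 0.115 on cytosol-labelled ribosomes, with overlap (exact permutation test, 2-sided, p = 0.8). Its mean was 0.0994 in ER whole-cell RNA, which overlapped ER-labelled ribosomes (exact permutation test, p = 0.3). In cytosol whole-cell RNA it was 0.101, without overlap with cytosol-labelled ribosomes (exact permutation test, p = 0.1, the smallest possible).

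**Figure D2:**
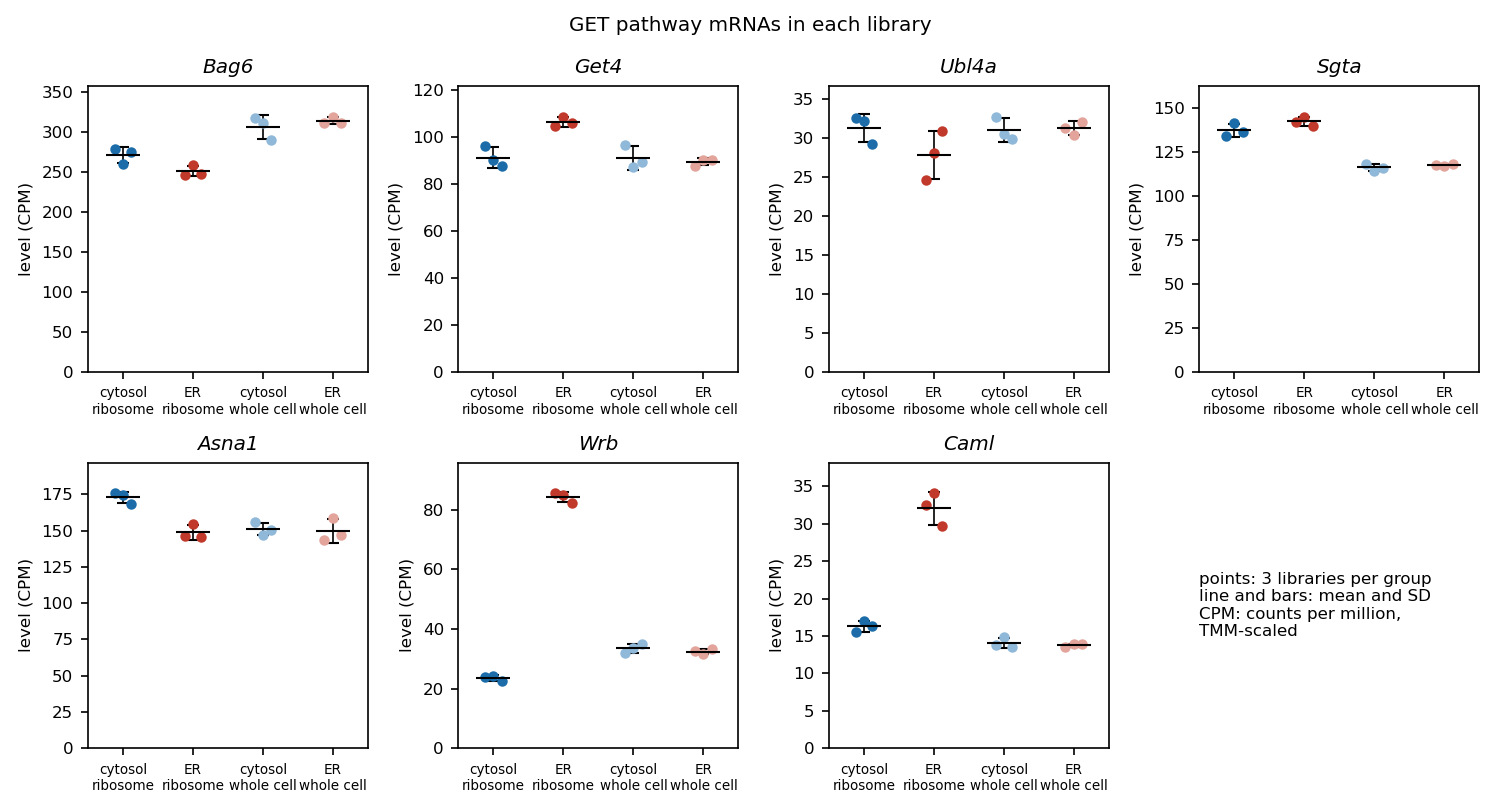
Level of each member in CPM (y axis, from 0, a separate scale for each gene) in the 3 libraries of each of the 4 groups (x axis); points are libraries, lines are means and bars are SD. The 3 ER ribosome-bound libraries stand above all others for Wrb (82.2 to 85.5 CPM) and Caml (29.7 to 34.1 CPM), and the other members differ much less between groups.

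Asna1, the ATPase that carries the client, was highest on cytosol-labelled ribosomes. Its libraries were at 175.8, 174.5 and 168.4 CPM on cytosol-labelled and at 146.3, 154.3 and 145.5 CPM on ER-labelled ribosomes. Whole-cell RNA held 155.6, 147.1 and 150.2 CPM in cytosol-targeted and 143.2, 159.0 and 147.2 CPM in ER-targeted cells. The cytosol-labelled libraries overlapped none of the others, and the remaining 3 groups overlapped each other. Asna1 fell by 0.22 on the log2 scale on ER-labelled against cytosol-labelled ribosomes (SE 0.039, adjusted p = 1.1e-05 by edgeR) and rose 1.15-fold on cytosol-labelled ribosomes over whole-cell RNA (log2 0.20, SE 0.039, adjusted p = 5.6e-05). ER-labelled ribosomes and ER whole-cell RNA gave a log2 ratio of -0.01 (SE 0.039, adjusted p = 0.86 by edgeR). With libraries scaled on 105 genes of cytosolic proteins (cytosolic scaling), that ratio became 0.27 and passed the threshold, the fall against cytosol-labelled ribosomes was -0.12 and the rise on cytosol-labelled ribosomes was 0.36.

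The complex that hands clients over held 3 members, of which Bag6 and Ubl4a were lower on ER-labelled than on cytosol-labelled ribosomes, unlike Get4. Bag6, its scaffold and a chaperone that also sends failed clients to degradation, was at 246.7, 258.5 and 247.6 CPM on ER-labelled ribosomes, at 278.5, 259.9 and 275.4 CPM on cytosol-labelled ribosomes, and at 289.8 to 319.1 CPM in the 6 whole-cell libraries. Both ribosome-bound groups lay below whole-cell RNA, and the ER-labelled libraries lay below the cytosol-labelled ones with a gap of little more than 1 CPM. Bag6 fell by 0.32 on the log2 scale on ER-labelled ribosomes over whole-cell RNA (SE 0.037, adjusted p = 1.5e-09 by edgeR), by 0.17 on cytosol-labelled ribosomes over whole-cell RNA (SE 0.037, adjusted p = 0.00012), and by 0.11 between both ribosome-bound groups (SE 0.037, adjusted p = 0.01). All 3 calls were lost with cytosolic scaling (-0.04, -0.01 and -0.01). The fall on cytosol-labelled ribosomes over whole-cell RNA was also lost without cytosol ribosome-bound replicate 2 (-0.09) or cytosol whole-cell replicate 1 (-0.10), and was -0.11 without cytosol whole-cell replicate 2. Between the ribosome-bound groups Bag6 was at -0.21 without cytosol ribosome-bound replicate 2 and at -0.20 without ER ribosome-bound replicate 2. It was at -0.17 when ER whole-cell replicate 2 or 3, or any 1 cytosol whole-cell replicate, was left out. The median of all tested genes moved in these fits too, from 0.001 to -0.059, to -0.054 and to -0.058 or -0.059, in the same order.

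Get4, which bridges the complex to Asna1, went the other way. It was at 104.4, 108.5 and 105.9 CPM on ER-labelled ribosomes and at 96.0, 90.0 and 87.4 CPM on cytosol-labelled ones, and at 87.1 to 96.6 CPM in the 6 whole-cell libraries. Every ER-labelled library was above every other library, and the other 3 groups overlapped. Get4 was 1.17-fold higher on ER-labelled than on cytosol-labelled ribosomes (log2 0.22, SE 0.042, adjusted p = 2.5e-05 by edgeR), and the log2 ratio was 0.14 without ER ribosome-bound replicate 2. It also rose over ER whole-cell RNA (log2 0.25, SE 0.043, adjusted p = 3.2e-06 by edgeR; 0.53 with cytosolic scaling), while the log2 ratio of cytosol-labelled ribosomes to whole-cell RNA was 0.00 (SE 0.043, adjusted p = 0.97), or 0.17 and past the threshold with cytosolic scaling. The count ratio of Get4 to Bag6 within a library was 0.424 ± 0.00387 (SD, n = 3) on ER-labelled and 0.336 ± 0.0162 on cytosol-labelled ribosomes, without overlap. It was 0.284 ± 0.00452 and 0.297 ± 0.0151 in ER-targeted and cytosol-targeted whole-cell RNA. The exact permutation test of the ribosome-bound groups gave the smallest possible p, 0.1.

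Ubl4a, the small ubiquitin-like subunit that binds Sgta, varied between the ER ribosome-bound replicates (27.8 ± 3.1 CPM, SD, n = 3). It was at 24.6, 28.0 and 30.8 CPM on ER-labelled ribosomes and at 32.5, 32.2 and 29.2 CPM on cytosol-labelled ones, and at 29.8 to 32.7 CPM in whole-cell RNA. The ER-labelled group was spread over both sides of the lowest cytosol-labelled library, so these groups overlapped. The log2 ratio was -0.17 against cytosol-labelled ribosomes (SE 0.064, adjusted p = 0.024 by edgeR) and -0.17 against ER whole-cell RNA (SE 0.065, adjusted p = 0.024), and 0.01 for cytosol-labelled ribosomes over whole-cell RNA (SE 0.063, adjusted p = 0.91). The first call was lost without cytosol ribosome-bound replicate 1 (-0.14) and with cytosolic scaling (-0.07), and the log2 ratio was -0.30 without ER ribosome-bound replicate 3. The second was lost without ER ribosome-bound replicate 1 (-0.09), ER whole-cell replicate 1 (-0.17) or 3 (-0.15), and also with DESeq2. Its log2 ratio turned to 0.11 with cytosolic scaling, under which the last ratio became 0.17 and passed the threshold. In the annotation used, 8.2% of Ubl4a exon bases also belonged to Slc10a3 on the same strand, which had 351 reads in all libraries together against 8831 for Ubl4a.

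Sgta, the chaperone that binds the anchor first, was higher on ribosomes of both kinds than in whole-cell RNA. It was at 142.2, 145.3 and 140.2 CPM on ER-labelled ribosomes and at 134.3, 141.5 and 136.8 CPM on cytosol-labelled ones, against 114.5 to 118.6 CPM in the 6 whole-cell libraries. The ribosome-bound groups overlapped each other and neither overlapped whole-cell RNA. Sgta rose 1.21-fold over whole-cell RNA on ER-labelled ribosomes (log2 0.27, SE 0.036, adjusted p = 2.5e-08 by edgeR) and 1.18-fold on cytosol-labelled ribosomes (log2 0.24, SE 0.035, adjusted p = 4.3e-07). The ribosome-bound groups differed by 0.05 (SE 0.035, adjusted p = 0.22 by edgeR), or by 0.15, past the threshold, with cytosolic scaling, which put the rises over whole-cell RNA at 0.56 and 0.41. Within a library, the count ratio of Asna1 to Sgta was 1.04 ± 0.0169 (SD, n = 3) on ER-labelled ribosomes and 1.26 ± 0.0445 on cytosol-labelled ones. It was 1.27 ± 0.0742 and 1.3 ± 0.0145 in ER-targeted and cytosol-targeted whole-cell RNA. The ER-labelled ribosomes had the lowest ratios, without overlap (exact permutation test, p = 0.1, the smallest possible).

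Counted over the 7 members, ER-labelled against cytosol-labelled ribosomes gave 3 higher (Wrb, Caml and Get4), 3 lower (Asna1, Ubl4a and Bag6) and 1 that did not pass. Over all tested genes 29.1% were higher and 24.6% lower, so 6 of 7 called stands beside 53.6% called in either direction. Which side held more genes depended on processing. Here 4715 genes were higher and 3983 lower, but 4387 and 4743 with RLE factors, and 4294 and 5040 without mitochondrially encoded genes. DESeq2 gave 4091 and 4243, and leaving out 1 library gave 4100 to 4718 higher and 3681 to 5137 lower. A rise of over 2-fold was reached by Wrb alone among the members, 1 of 7, and by 18.1% of all tested genes. In 5 of 7 members the libraries of these groups did not overlap, and 58.4% of all tested genes shared that property. The members' median log2 ratio was 0.05 and that of all tested genes 0.00. Wrb lay above 94.5% of tested genes, Caml above 81.5%, Get4 above 67.9% and Asna1 above 21.5%. Over ER whole-cell RNA, 4 members were higher on ER-labelled ribosomes and 2 lower (all tested genes: 63.1% called, 32.5% higher, 30.6% lower), 2 of 7 were over 2-fold higher (16.5%), and 5 of 7 did not overlap (65.6% of all tested genes). On cytosol-labelled ribosomes over whole-cell RNA, 3 were higher and 2 lower (20.8% and 33.0%, together 53.9%), 0 were over 2-fold higher (1.92%), and again 5 of 7 did not overlap (58.6%). The comparisons share libraries, so their counts are not independent of each other.

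No member passed the test between whole-cell RNA of ER-targeted and cytosol-targeted cells. The log2 ratios ran from -0.04 to 0.04, the highest SE was 0.076, and the smallest unadjusted p among the members was 0.34 in edgeR's quasi-likelihood test. None of 7 members had groups without overlap, against 9.35% of tested genes. Over all tested genes 0.0% were called by edgeR after Benjamini-Hochberg adjustment, DESeq2 called 0 as well, and 634 genes had an unadjusted p under 0.05.

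Whether enrichment over whole-cell RNA differed by targeting, ER minus cytosol, was tested as an interaction in the same fit. It was positive for Wrb (log2 1.89, SE 0.072, adjusted p = 1.4e-22 by edgeR), Caml (1.01, SE 0.10, adjusted p = 7.5e-11) and Get4 (0.25, SE 0.06, adjusted p = 0.00076). It was negative for Asna1 (-0.20, SE 0.055, adjusted p = 0.0026 by edgeR) and Bag6 (-0.15, SE 0.052, adjusted p = 0.02). Sgta (0.03, SE 0.05, adjusted p = 0.66) and Ubl4a (-0.18, SE 0.091, adjusted p = 0.12) did not pass in edgeR's test. The 3 members above and 2 below stand beside 24.8% and 18.6% of all tested genes, together 43.4%, and the 2 members over 2-fold higher beside 17.6%. Caml passed 2-fold only narrowly: its log2 difference ran from 0.91 (without ER ribosome-bound replicate 2) to 1.01 with 1 library left out. It was under 1 in these fits except without replicate 3 of either ribosome-bound group (1.01 each) or ER whole-cell replicate 1 (1.00), and was also under 1 with RLE factors (0.97), without mitochondrially encoded genes (0.96), without a filter (0.95) and with DESeq2 (0.96). With cytosolic scaling the calls of Asna1 (-0.09) and Bag6 (-0.03) were lost and Sgta passed (0.15), and the Bag6 call was also lost without cytosol ribosome-bound replicate 3 (-0.14). Bag6 was at -0.23 without cytosol ribosome-bound replicate 2 or cytosol whole-cell replicate 1, and Get4 at 0.15 without the latter. Ubl4a passed without cytosol whole-cell replicate 1 (-0.27), ER ribosome-bound replicate 2 (-0.24) or 3 (-0.30), or ER whole-cell replicate 2 (-0.25), and also with RLE factors (-0.22), without mitochondrially encoded genes (-0.23) and without a filter on low counts (-0.24).

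**Figure D3:**
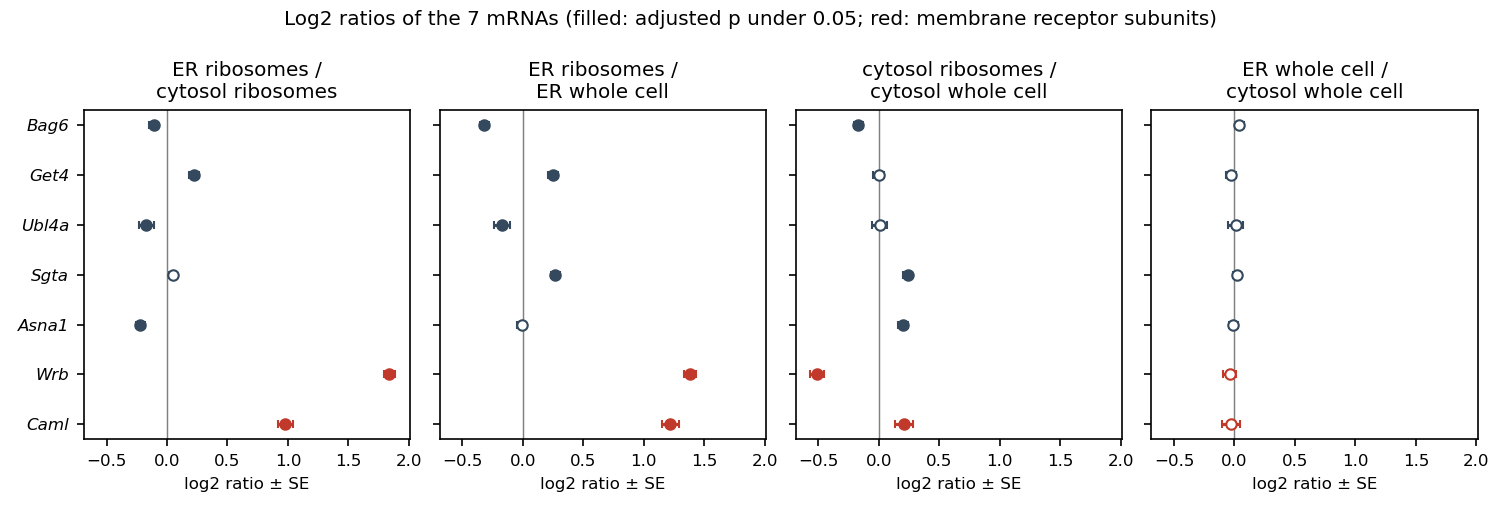
Log2 ratio ± SE (x axis) of each member (y axis) in 4 comparisons, from edgeR; filled points have an adjusted p under 0.05 and red points are the receptor subunits. Wrb (1.84) and Caml (0.98) stand to the right of the other members in the first panel, Wrb is left of 0 in the third (-0.51) while Caml is right of it (0.21), and all points of the whole-cell comparison lie between -0.04 and 0.04.

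Levels between genes were compared only after division by transcript length, in CPM per kb. On cytosol-labelled ribosomes Asna1 was first at 138 ± 3.17 CPM per kb (SD, n = 3) and Wrb last at 9.43 ± 0.377. Between them came Bag6 (70.3 ± 2.59), Sgta (69.8 ± 1.85), Get4 (43.3 ± 2.09), Ubl4a (12.8 ± 0.749) and Caml (11.8 ± 0.529); Bag6 and Sgta overlapped, as did Ubl4a and Caml. On ER-labelled ribosomes Asna1 was again first at 118 ± 3.89 CPM per kb, followed by Sgta (72.4 ± 1.32), Bag6 (65.0 ± 1.69), Get4 (50.4 ± 0.99), Wrb (33.7 ± 0.7), Caml (23.2 ± 1.62) and Ubl4a (11.4 ± 1.27), and no neighbours overlapped. Wrb thus stood above Caml and Ubl4a there, and Ubl4a was last. In ER whole-cell RNA the order from the top was Asna1, Bag6, Sgta, Get4, Wrb (13.0 ± 0.335 CPM per kb), Ubl4a (12.8 ± 0.351) and Caml (9.99 ± 0.149), with overlap between Wrb and Ubl4a, and cytosol whole-cell RNA had the same order and the same overlap. The transcript lengths are those of 1 chosen transcript per gene, which were not measured in these cells.

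The members were set beside all tested genes whose proteins had the same arrangement of hydrophobic segments. Among 9235 genes with no segment, the median log2 ratio of ER-labelled over cytosol-labelled ribosomes was -0.11, and Asna1 lay above 29.6% of them, Ubl4a above 38.3% and Sgta above 75.1%. The class with 1 segment past residue 40 held 1704 genes, of which 707 were higher on ER-labelled ribosomes and 319 lower, with a median of 0.11 and a middle range (25th to 75th percentile) of -0.12 to 0.96. This class held the soluble proteins Bag6 (above 25.9%) and Get4 (above 59.1%) together with the membrane protein Caml (above 75.3%). Wrb belonged to 1185 genes with a segment in the first 40 residues and at least 1 more, of which 1089 were higher and 3 lower (median 1.56), and it lay above 73.5% of them. The threshold set both the classes and the place of members in them. At 1.4 the class with 1 segment past residue 40 held 581 genes higher and 633 lower (median -0.03), and at 1.8 it held 809 and 155 (median 0.62). Get4 lay above 76.2% of that class at 1.4 and above 37.5% at 1.8, on either side of its median. Caml had 2 segments at 1.4 and lay above 64.2% of 1629 genes with at least 2 segments, none in the first 40 residues, and at 1.8 it lay above 56.9% of the class with 1 segment. Bag6 lay above 16% of those 1629 genes at 1.4, and at 1.8 it had no segment and lay above 47.3% of its class. Wrb kept its class at all 3 thresholds and lay above 73.0% to 74.2% of it.

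**Figure D4:**
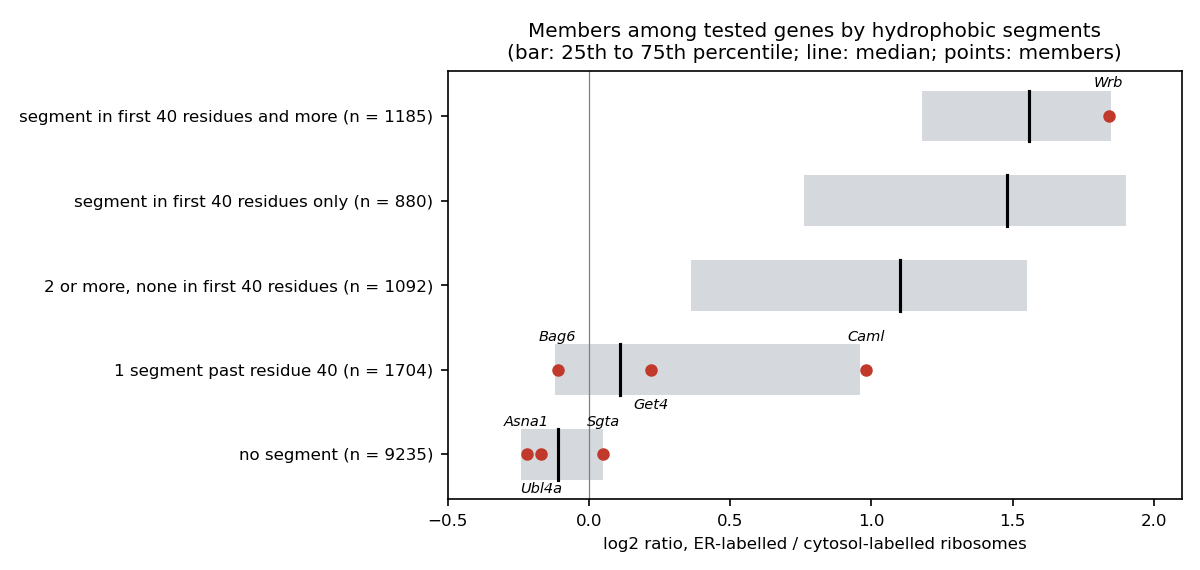
Log2 ratio of ER-labelled over cytosol-labelled ribosomes (x axis) for tested genes in 5 classes of hydrophobic segments at a threshold of 1.6 (y axis, n is genes); bars span the 25th to 75th percentile, black lines are medians and red points are the 7 members. Wrb (1.84) is near the upper end of the bar of its class, and Caml (0.98) is just beyond the 75th percentile (0.96) of a class whose median is 0.11.

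Proteins that work with the pathway without being members were described by a list of 12 cofactors and quality control factors, of which 11 were tested. On ER-labelled against cytosol-labelled ribosomes 2 were higher and 7 lower, beside 29.1% and 24.6% of all tested genes. The median was 0.00 for all tested genes and -0.18 for the list. The lowest ratio belonged to Ubqln4, a ubiquilin that binds exposed membrane segments in the cytosol, with means of 225.5 CPM on ER-labelled ribosomes and 317.0 CPM on cytosol-labelled ones (log2 -0.49, SE 0.037, adjusted p = 3.5e-14 by edgeR). Rnf126, the soluble ubiquitin ligase recruited by Bag6, had a log2 ratio of -0.14 (SE 0.043, adjusted p = 0.0071 by edgeR), which cytosolic scaling moved to -0.04 and below the threshold. Sgtb, the close relative of Sgta, had -0.18 (SE 0.098, adjusted p = 0.13 by edgeR), and passed at -0.23 with mitochondrially encoded genes left out. With cytosolic scaling the list held 2 higher and 6 lower, with RLE factors 1 and 8, and without mitochondrially encoded genes 1 and 9.

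Wrb is related in structure to Emc3, a core subunit of the ER membrane protein complex (EMC), which is another inserter, and to Tmco1; these proteins form the Oxa1 family. Emc3 averaged 94.5 CPM on ER-labelled ribosomes and 24.2 CPM on cytosol-labelled ones (log2 1.96, SE 0.054, adjusted p = 1.9e-27 by edgeR), and Tmco1 at 99.3 and 21.9 CPM (log2 2.18, SE 0.052, adjusted p = 2.6e-29). The list of this family with Tmem208 of the SND route held 6 genes, Wrb among them. All 6 were higher on ER-labelled than on cytosol-labelled ribosomes (median 1.71), beside 29.1% of all tested genes. The other named members were Tmem208 (log2 1.58, SE 0.07) and Oxa1l, the mitochondrial relative, which had the lowest ratio (0.29, SE 0.038, adjusted p = 3.2e-08 by edgeR). Over ER whole-cell RNA, 5 of the 6 were higher on ER-labelled ribosomes and 1 lower, beside 32.5% and 30.6% of all tested genes. The lower one was Oxa1l (log2 -0.10, SE 0.038, adjusted p = 0.016 by edgeR), and with cytosolic scaling all 6 were higher. On cytosol-labelled ribosomes over whole-cell RNA, 4 of the 6 were lower and 1 higher, beside 33.0% and 20.8% of all tested genes.

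Subunits of the EMC differed from each other. Of 10 EMC subunits, 8 were higher on ER-labelled than on cytosol-labelled ribosomes and 1 was lower, beside 29.1% and 24.6% of all tested genes. The median was 0.00 for all tested genes and 1.54 for the EMC. Emc1, which spans the membrane, had the highest log2 ratio of 2.31 (SE 0.055), and Emc2, which sits on the cytosolic face, was the subunit that fell (-0.38, SE 0.047, adjusted p = 1.4e-08 by edgeR). The other soluble subunits, named after their values were seen, were Emc8 (-0.07, SE 0.048, adjusted p = 0.25; -0.11 and past the threshold with RLE factors, 0.03 with cytosolic scaling) and its relative Emc9 (0.41, SE 0.149, adjusted p = 0.018). Of 8 genes of the signal recognition particle and its receptor, 3 were higher and 2 lower, near the shares over all tested genes (29.1% and 24.6%). With RLE factors, or without mitochondrially encoded genes, 3 were higher and 4 lower, and the median of -0.04 became 0.06 with cytosolic scaling. The receptor subunit Srprb, which spans the membrane, had the highest log2 ratio of 1.87 (SE 0.045) and the particle's subunit Srp54a the lowest of -0.35 (SE 0.111); counts of Srp54a are uncertain because near-identical copies exist.

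Possible clients of the pathway were described by a list of genes taken as tail-anchored. Their mRNAs were mostly lower on ER-labelled ribosomes or not past the threshold. Of 31 genes listed as tail-anchored proteins of the ER and Golgi, 30 were tested. Their anchors, their final membranes and their use of the pathway were not examined here. On ER-labelled against cytosol-labelled ribosomes 17 were lower and 0 higher in edgeR's test, beside 24.6% and 29.1% of all tested genes. The median was 0.00 for all tested genes and -0.15 for the listed genes. With cytosolic scaling 7 listed genes were lower and 4 higher (median -0.05). With RLE factors 22 were lower and 0 higher (median -0.19), and without mitochondrially encoded genes 23 and 0 (median -0.2). The highest ratio belonged to Hmox1, the haem oxygenase (log2 0.11, SE 0.051, adjusted p = 0.077 by edgeR; 0.21 and past the threshold with cytosolic scaling), and the lowest to Ptpn1, a phosphatase of the ER surface (-0.37, SE 0.049, adjusted p = 4.9e-08). Over ER whole-cell RNA 4 listed genes were higher and 12 lower (all tested genes: 32.5% and 30.6%). On cytosol-labelled ribosomes over whole-cell RNA 12 listed genes were higher and 3 lower (all tested genes: 20.8% and 33.0%). Cytosolic scaling turned the first of these counts to 22 higher and 0 lower (median 0.23, from -0.05) and made the second 23 higher and 0 lower.

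**Figure D5:**
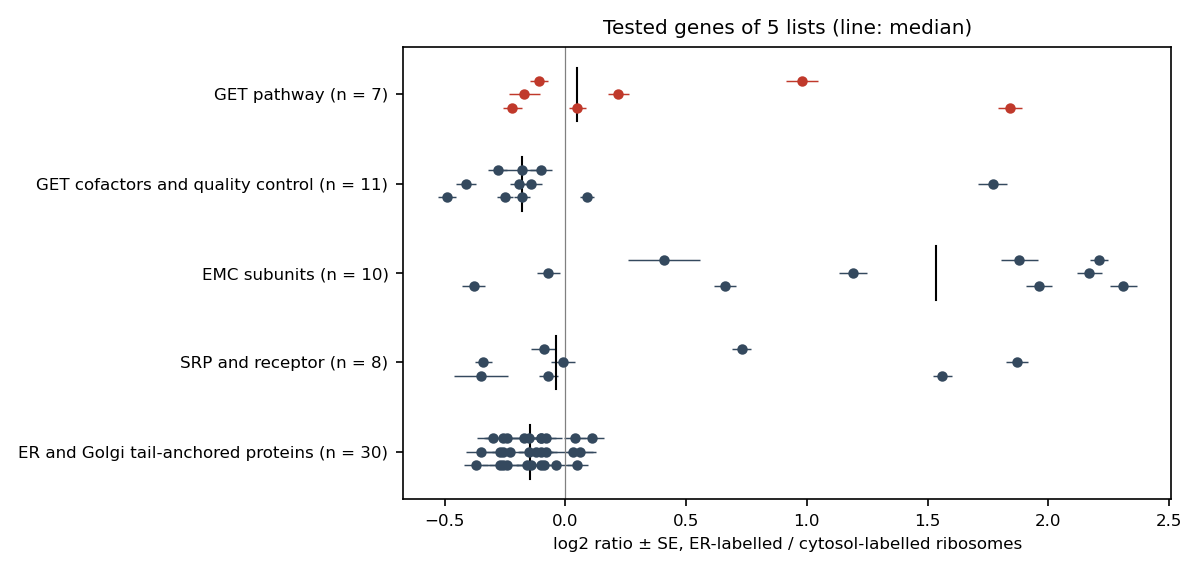
Log2 ratio ± SE of ER-labelled over cytosol-labelled ribosomes (x axis) for each tested gene of 5 lists (y axis, n is genes); black lines are medians and points are staggered for legibility. The GET members split into 2 genes near and above 1 (Caml at 0.98, Wrb at 1.84) and 5 between -0.22 and 0.22. The 30 tested genes listed as tail-anchored lie between -0.37 and 0.11, and the EMC spans -0.38 to 2.31.

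The genes with the most similar pattern over the 4 groups were found by the root mean square distance between group means of log2(CPM + 0.5), each centred on its own mean, among 9601 genes of at least 10 CPM. Nearest to Wrb were Efemp2, a secreted matrix protein (distance 0.013), Dgcr2, a membrane protein (0.020), and Fads1, a fatty acid desaturase of the ER (0.022). Nearest to Caml were Rab5if (0.017), Pmepa1, a membrane protein (0.020), and Fam173a (0.021). For the soluble members the nearest were Cdc37, a partner of Hsp90, for Asna1 (0.005), Coq8b for Get4 (0.009), Hunk, a kinase, for Ubl4a (0.004), Pmpcb, a mitochondrial protease subunit, for Bag6 (0.004) and the transcription factor Mafk for Sgta (0.008).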

How the data were processed

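The authors deposited whole-number read counts per Ensembl gene, 1 file per library, not normalized. Per the submitters' processing notes, STAR 2.7.9a, HTSeq 0.11.2, DESeq2 (no version) and GRCm39 were used. For the strand setting and multimapped reads, the choices made are not given; per the labels the kit was directional. An antisense gene shares 11.6% of Wrb exon bases and had 5 reads in all. Class totals outside genes (8.75% to 12.54% of reads) were kept out of library sizes. Symbols (52083 of 55416 identifiers), transcript lengths and translated proteins came from GENCODE M21 on GRCm38, so no coordinates are given; 1 transcript was used per gene, the APPRIS principal with the longest coding sequence.

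Genes were kept with filterByExpr by group and TMM-scaled, and 1 model with 4 group terms was fitted to all 12 libraries (edgeR 4.0.16, R 4.3.3; quasi-likelihood test, 2-sided, Benjamini-Hochberg at 0.05 over 16221 genes). SEs were taken as |log2 ratio| divided by √F. The biological coefficient of variation was 3.6%, and replicates correlated at 0.9968 to 0.9981 across genes; all differed by more than counting noise. Errors do not cover PCR duplication.

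Alternatives were RLE and cytosolic scaling, mitochondrially encoded genes left out, other filters, DESeq2 1.42.0, replicate blocks and each library left out. All 7 members are named throughout. From other lists the text names the genes with the highest and lowest log2 ratio between ribosome-bound groups and Rnf126, Sgtb, Ubqln4, Emc3, Tmco1 and Tmem208, and by likeness the 3 nearest genes for Wrb and Caml and 1 for each other member. A gene that this rule names is not reported here. Members and lists were chosen with earlier results of these data known.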

Additional observations from a re-analysis of the deposited data

Results flagged for a closer look

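For 5 of the 7 members the enrichment on ribosomes over whole-cell RNA differed between ER-targeted and cytosol-targeted cells, by edgeR's interaction test. The difference of log2 enrichments, ER minus cytosol, was 1.89 for Wrb, 1.01 for Caml and 0.25 for Get4, and -0.20 for Asna1 and -0.15 for Bag6. Over all tested genes 43.4% had such a difference. Wrb was the member whose enrichments had opposite signs with both past the threshold, at 1.38 over whole-cell RNA on ER-labelled and -0.51 on cytosol-labelled ribosomes. Groups of 3 libraries are too small for the test of single libraries that stand apart.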

How the results depend on the processing

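Across all alternatives, 519 of 574 member results kept their direction and their side of the threshold. Another 30 changed sign, with or without a change of call, and of those that kept their sign 14 lost and 11 gained a call. Wrb and Caml kept their direction and call in the 4 comparisons with ribosome-bound RNA. Cytosolic scaling moved the median log2 ratio of all genes to 0.101, 0.295 and 0.11 (ER against cytosol ribosomes, then each over whole-cell RNA) and 0.119 (difference of enrichments). Under it, genes lower numbered 2170, 1964, 3478 and 1266 in these comparisons (reported: 3983, 4967, 5360 and 3010), genes higher over whole-cell RNA 8948 and 5791 (5271 and 3380), members lower 1, 0, 1 and 0, and members higher on cytosol ribosomes over whole-cell RNA 5. DESeq2 left 1 member lower on ER ribosomes over whole-cell RNA, and no filter gave 7 genes lower between whole-cell groups.

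Small ratios changed sign. Between ribosome-bound groups Sgta was -0.01 without mitochondrially encoded genes and without a filter. Over ER whole-cell RNA Asna1 was 0.27 and Ubl4a 0.11 with cytosolic scaling, and Asna1 0.01 with the CPM filter. In the difference of enrichments Sgta was -0.01 (RLE), -0.02 (without mitochondrially encoded genes), -0.03 (no filter) and -0.01 (DESeq2). With 1 library left out, Sgta ran from -0.02 to 0.05 between ribosome-bound groups and -0.04 to 0.03 in the difference, Asna1 from -0.04 to 0.03 over ER whole-cell RNA, and Get4 from -0.04 to 0.10 and Ubl4a from -0.02 to 0.10 on cytosol ribosomes over whole-cell RNA. Members lower ran from 2 to 3, 1 to 2, 1 to 2 and 1 to 3, and genes lower between whole-cell groups from 0 to 2. The median log2 ratio of all tested genes also moved in several of these fits. It went as far as -0.062 between ribosome-bound groups (0.001 with all libraries) and -0.052 in the difference (0.002). On cytosol ribosomes over whole-cell RNA it went as far as 0.002 (-0.054 with all libraries). The cause was not tested.

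The design text ties whole-cell RNA to the same lysates without saying that replicate numbers mark them. Same-numbered deviations correlated at -0.006 to 0.268 (ER) and 0.058 to 0.1 (cytosol), and 4 and 5 of 6 libraries correlated best with their own number. A replicate block by number gave 4692 higher and 3945 lower between ribosome-bound groups, 5240 and 4934 over ER whole-cell RNA, 3343 and 5326 over cytosol whole-cell RNA, 0 and 0 between whole-cell groups, and 4000 and 2993 in the difference. Blocks by lysate gave 5362 and 5086, 3542 and 5502, and 4112 and 3257. No block changed a member's call. Counts are lowest for Caml and Ubl4a, which have the largest SEs.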
